A study of Homo sapiens with 9 samples.

Results

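CDC16, VDAC3, HNRNPD, HELZ, ATP13A3, DIDO1, VPS53, DOK3 and GOLIM4 are 9 genes in which a single stretch of the transcript moved by about 2 on the log2 scale, relative to the rest of the gene, when a hairpin RNA against CPSF3 or RBFOX2 was expressed in a human cell line. They were picked by these shifts, so the shifts against control are given as descriptions, without a test. Together they hold 280 of the 354600 array probe sets that carry exactly 1 gene symbol, and 9 of 19426 symbols. A probe set is a small group of probes against one stretch of a transcript, usually an exon or part of one. Of the 280 probe sets, 264 passed the filter on low signal, a mean over all arrays of at least 6.97, and the other 16 did not.

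The cells were Flip-In-293, which descend from HEK293, a line of human embryonic kidney, and carry a site for inserting transgenes. One group received a lentivirus with a CPSF3 hairpin, another a lentivirus with an RBFOX2 hairpin, and the control group a lentivirus with a non-silencing hairpin, so that all groups carry a virus and a hairpin. RNA was isolated after 10 days of culture and measured on 9 exon arrays, 3 per group. By their titles the replicates are biological, by the series text technical. A p-value here therefore reflects variation among these 9 arrays, and that variation may be technical only.

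CPSF3 cleaves the pre-mRNA where the poly(A) tail will be added. RBFOX2 is an RNA-binding splicing factor whose effect on an exon depends on whether it binds upstream or downstream of it. An exon that is skipped, or a transcript that ends early, lowers the signal of some probe sets of a gene while the rest keep theirs; an intron stretch that stays in the RNA raises it. The array reports signal per stretch, not which transcript carries it, and in RNA from a whole culture fewer cells with a transcript and less of it per cell cannot be told apart.

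The 9 genes have unlike roles. HNRNPD binds AU-rich elements in mRNAs and influences their decay, HELZ is an RNA helicase, and DIDO1 is a chromatin protein with a PHD finger that also associates with RNA polymerase II. VDAC3 is a channel of the outer mitochondrial membrane, ATP13A3 a membrane pump of the P5 type of ATPases that takes part in polyamine uptake, and GOLIM4 a Golgi membrane protein that cycles through endosomes. VPS53 is a subunit of tethering complexes that receive vesicles from endosomes, CDC16 is a subunit of the anaphase-promoting complex, the ubiquitin ligase that drives exit from mitosis, and DOK3 is an adaptor protein best known from B cells and macrophages.

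The arrays were alike in scale, with medians over all probe sets within 0.03 of each other on the log2 scale, and no pair of arrays held identical values. CPSF3 itself averaged 9.38 ± 0.19 in the arrays labelled CPSF3 knockdown, 9.71 ± 0.18 in RBFOX2 hairpin arrays and 9.47 ± 0.29 in control arrays (gene level, log2, SD, n = 3 each). The label is thus not borne out by the array signal of CPSF3, which differed from control by -0.09 (limma adjusted p = 0.752), and the group is called the CPSF3-labelled arrays from here on. RBFOX2 averaged 8.94 ± 0.11 in RBFOX2 hairpin arrays and 9.53 ± 0.14 in control arrays, a difference of -0.58 (limma adjusted p = 0.0617). Markers of HEK293 cells passed the filter in 6 of 6 cases, and their mean level per array lay between 9.33 and 9.42 in CPSF3-labelled arrays, between 9.55 and 9.66 in RBFOX2 hairpin arrays and between 9.73 and 9.98 in control arrays; their part in the results was not tested. Of the markers of blood cells 3 of 5 did so, of endothelium 1 of 4 and of fibroblasts 2 of 4. Among the blood markers SPI1 at 7.97, CD79A at 7.59 and CD14 at 7.17 passed, while CD3E at 6.16 and PTPRC at 4.60 did not. The level of the blood list lay between 6.66 and 6.72 in CPSF3-labelled arrays, between 6.70 and 6.86 in RBFOX2 hairpin arrays and between 6.57 and 6.68 in control arrays (mean of the list per array), and its part in the results for DOK3 was not tested.

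Control replicate 3 lay closer to the mean of the hairpin arrays than the other control arrays, with a root mean square distance of 0.26 over all exon signals, against 0.33 and 0.35 for control replicates 1 and 2. Of the RBFOX2 hairpin arrays, replicate 2 lay closest to the control mean, at 0.27 against 0.36 and 0.32 for replicates 1 and 3. Both arrays return in most of the shifts below, and the shifts are given with and without control replicate 3.

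In what follows, the relative signal of a probe set is its deposited log2 value minus the gene level, the median over the gene's probe sets that passed the filter, on the same array. A relative signal of 0 means that the probe set is as bright as the middle probe set of its gene. In each gene the probe set described first is, of those that passed the filter, the one with the largest absolute difference from control in either hairpin group. The threshold of about 2 was just met by VPS53 at 2.01 and by GOLIM4 at -2.001, and DOK3 lay just under it at 1.91.

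**Figure D1:**
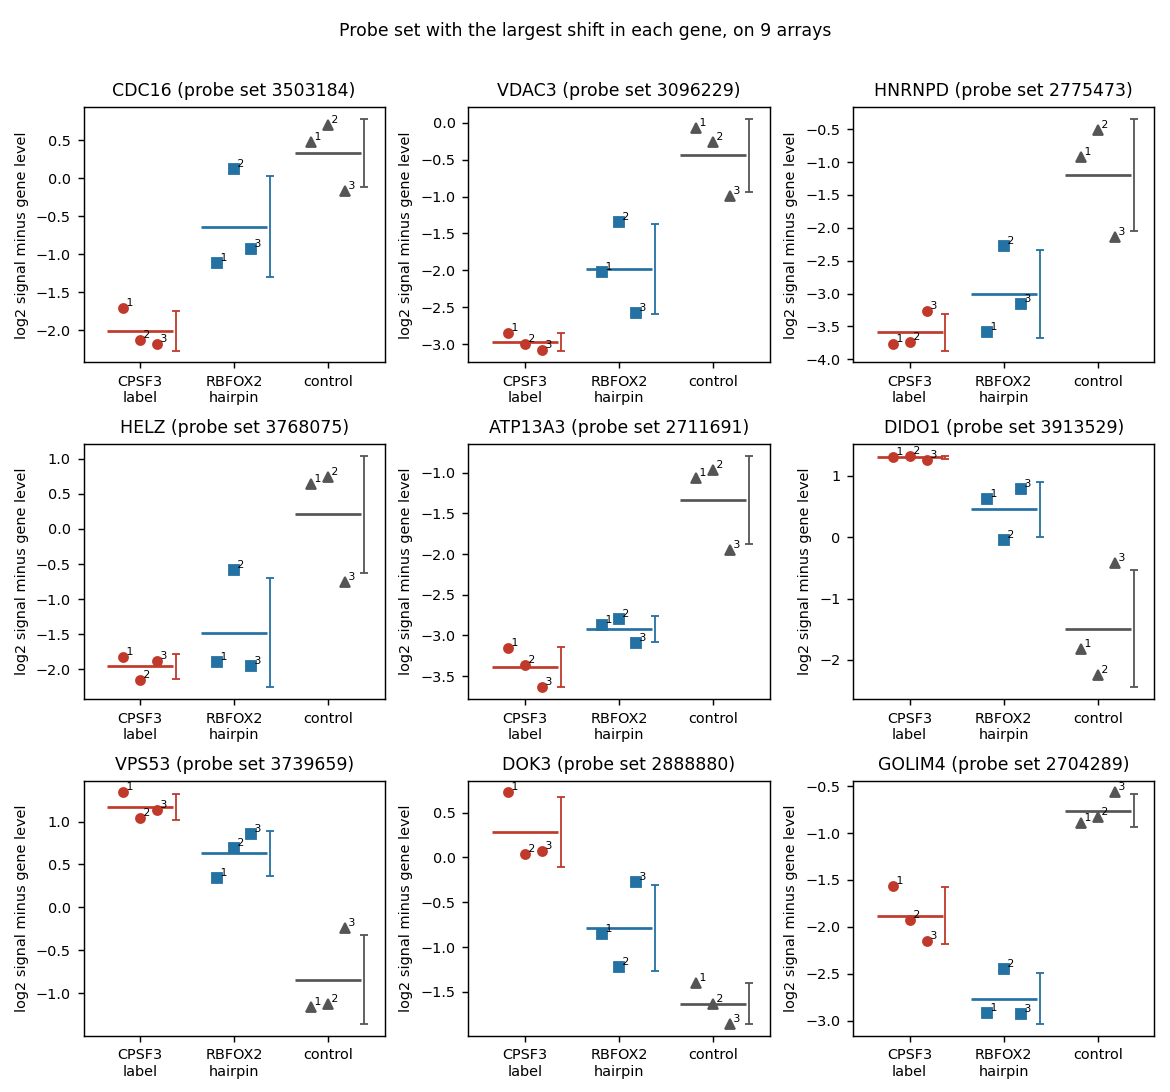
Relative signal (log2 value minus gene level, vertical axis, one scale per gene) in each of the 9 genes, for CPSF3-labelled, RBFOX2 hairpin and control arrays. Each panel shows, of the gene's probe sets that passed the filter, the one with the largest shift. Points are single arrays with their replicate number, horizontal lines are means and vertical bars are ± 1 SD (n = 3); the CPSF3-labelled arrays are clear of the control arrays in all 9 panels, and control replicate 3 is the control array nearest to the hairpin arrays in 7 of them.

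Of the 9 shifts against control, 6 were towards lower signal. Among the genes for RNA-binding proteins, HNRNPD had a relative signal at probe set 2775473 of -3.77, -3.73 and -3.26 in the 3 CPSF3-labelled arrays, of -3.58, -2.27 and -3.16 in RBFOX2 hairpin arrays, and of -0.92, -0.51 and -2.14 in control arrays. The hairpin arrays were all below the controls, but RBFOX2 hairpin replicate 2 and control replicate 3 lay next to each other. The shift was -2.40 (SE 0.42, 5.27-fold lower) in CPSF3-labelled arrays and -1.81 in RBFOX2 hairpin arrays, and -2.87 and -2.29 without control replicate 3.

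In the helicase gene HELZ, probe set 3768075 had a relative signal of -1.82, -2.16 and -1.88 in CPSF3-labelled arrays, of -1.90, -0.59 and -1.96 in RBFOX2 hairpin arrays and of 0.65, 0.73 and -0.76 in control arrays. Control replicates 1 and 2 were high and alike, while control replicate 3 lay below RBFOX2 hairpin replicate 2, so these 2 groups overlap. The mean shift was -2.16 (SE 0.44) in CPSF3-labelled arrays and -1.69 in RBFOX2 hairpin arrays; without control replicate 3 it was -2.65 and -2.17. Within HELZ the control SD of 0.84 and the RBFOX2 hairpin SD of 0.78 were several times the CPSF3-labelled SD of 0.18.

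The mitochondrial channel gene VDAC3 had its largest shift at probe set 3096229. Its relative signal was -2.84, -2.999 and -3.07 in CPSF3-labelled arrays, -2.02, -1.35 and -2.57 in RBFOX2 hairpin arrays and -0.07, -0.26 and -0.999 in control arrays. No array of one group fell within another group, and the RBFOX2 hairpin arrays lay between the other groups. The shift was -2.53 (SE 0.31, 5.78-fold lower) in CPSF3-labelled arrays and -1.54 in RBFOX2 hairpin arrays. On the deposited scale, where the gene is not subtracted, it was smaller, at -1.97 and -1.39, because the gene level itself was higher in the hairpin arrays.

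In ATP13A3, probe set 2711691 stood at -3.16, -3.36 and -3.64 in CPSF3-labelled arrays, at -2.87, -2.80 and -3.10 in RBFOX2 hairpin arrays and at -1.06, -0.97 and -1.95 in control arrays. Here the 3 RBFOX2 hairpin arrays were as tight as the CPSF3-labelled ones (SD 0.16 and 0.24), and no groups overlapped. The shift was -2.06 (SE 0.25) in CPSF3-labelled arrays and -1.59 in RBFOX2 hairpin arrays.

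CDC16, the subunit of the anaphase-promoting complex, had a relative signal at probe set 3503184 of -1.70, -2.13 and -2.19 in CPSF3-labelled arrays, of -1.11, 0.13 and -0.93 in RBFOX2 hairpin arrays and of 0.47, 0.69 and -0.16 in control arrays. The CPSF3-labelled arrays stood alone at the bottom. RBFOX2 hairpin replicate 2 lay among the controls, so that the RBFOX2 hairpin group overlapped them and its mean shift was -0.97, against -2.34 (SE 0.32, 5.06-fold lower) in CPSF3-labelled arrays. CDC16 thus had the widest gap between the hairpin groups of the 9 genes, -1.37.

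The Golgi gene GOLIM4 was the exception in the order of the groups. Probe set 2704289 stood at -1.56, -1.93 and -2.15 in CPSF3-labelled arrays, at -2.91, -2.45 and -2.93 in RBFOX2 hairpin arrays and at -0.89, -0.83 and -0.56 in control arrays. The RBFOX2 hairpin arrays were lowest and no groups overlapped, with a shift of -2.001 in RBFOX2 hairpin arrays and of -1.12 (SE 0.19) in CPSF3-labelled arrays. In the deposited values the RBFOX2 hairpin arrays stood at 6.35, 6.97 and 6.47, at or below the level of the median probe set, against 8.17, 7.97 and 8.89 in control arrays. GOLIM4 and DOK3 were the only ones of the 9 in which control replicate 3 was not the control array nearest to the hairpin arrays.

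In the other 3 genes the signal was higher than control. In DIDO1, probe set 3913529 had a relative signal of 1.31, 1.32 and 1.26 in CPSF3-labelled arrays, of 0.63, -0.05 and 0.78 in RBFOX2 hairpin arrays and of -1.82, -2.24 and -0.41 in control arrays. The CPSF3-labelled arrays agreed to within a few hundredths (SD 0.03), the RBFOX2 hairpin arrays were intermediate, and control replicate 3 was well above the other controls without reaching the hairpin arrays. At 2.79 (SE 0.40, 6.91-fold higher) in CPSF3-labelled arrays this was the largest of the 9 shifts, and it was 1.94 in RBFOX2 hairpin arrays. In the deposited values DIDO1 control replicates 1 and 2, at 6.84 and 6.62, lay below the filter level, while the CPSF3-labelled arrays stood at 10.66, 10.62 and 10.49.

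In VPS53, the vesicle-tethering subunit, probe set 3739659 stood at 1.34, 1.04 and 1.13 in CPSF3-labelled arrays, at 0.34, 0.69 and 0.86 in RBFOX2 hairpin arrays and at -1.16, -1.13 and -0.24 in control arrays. Every CPSF3-labelled array was above every RBFOX2 hairpin array, and those were all above the controls. The shift was 2.01 (SE 0.24) in CPSF3-labelled arrays and 1.47 in RBFOX2 hairpin arrays. It was larger on the deposited scale, at 2.48 and 1.78, since the VPS53 gene level was higher in the hairpin arrays as well.

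In DOK3, the blood-cell adaptor, probe set 2888880 stood at 0.73, 0.04 and 0.08 in CPSF3-labelled arrays, at -0.86, -1.23 and -0.27 in RBFOX2 hairpin arrays and at -1.40, -1.63 and -1.86 in control arrays. The 3 groups formed separate steps, with the CPSF3-labelled arrays highest. The shift was 1.91 (SE 0.26) in CPSF3-labelled arrays and 0.84 in RBFOX2 hairpin arrays. In the deposited values DOK3 control arrays had 7.12, 6.78 and 6.87 at this probe set, close to the filter level.

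Across the 9 probe sets, 6 were lower and 3 higher than control, in the same direction in both hairpin groups. Of the 1668 exon signals shifted by at least 1 in CPSF3-labelled arrays, 99.9% also had the same direction in both hairpin groups. The median absolute shift was 2.16 in CPSF3-labelled arrays and 1.59 in RBFOX2 hairpin arrays, and 8 of the 9 shifts were larger in CPSF3-labelled arrays. Both comparisons use the same 3 control arrays.

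Without control replicate 3 the shifts in CPSF3-labelled arrays were -2.59 in CDC16, -2.81 in VDAC3, -2.37 in ATP13A3, 3.33 in DIDO1 and 2.31 in VPS53. In RBFOX2 hairpin arrays they were then -1.22 in CDC16, -1.82 in VDAC3, -1.90 in ATP13A3, 2.48 in DIDO1 and 1.77 in VPS53, so that these genes, like HNRNPD and HELZ, had larger shifts without that array. The opposite held for DOK3, with 1.80 in CPSF3-labelled and 0.73 in RBFOX2 hairpin arrays, and for GOLIM4, with -1.02 in CPSF3-labelled and -1.90 in RBFOX2 hairpin arrays. With RBFOX2 hairpin replicate 2 left out as well, the RBFOX2 hairpin shift was -1.60 in CDC16 and -2.62 in HELZ.

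The CPSF3-labelled arrays did not overlap with control in 9 of 9 cases and the RBFOX2 hairpin arrays in 7 of 9; over all 257548 exon signals the groups did not overlap in 18.6% and 10.9%, and since the genes were picked in these comparisons nothing is read from the difference. A shift of at least 2 was reached by 0.00699% of all exon signals in CPSF3-labelled arrays and by 0.00194% in RBFOX2 hairpin arrays. In number that is 18 and 5 probe sets in the whole table, of which 8 and 1 belong to the 9 genes.

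No exon signal of the whole table passed an adjusted p of 0.05 in limma in either comparison with control (percent called 0 in both), and the smallest adjusted p was 0.0603 in CPSF3-labelled arrays and 0.254 in RBFOX2 hairpin arrays. At an unadjusted p under 0.05 there were 12.7% and 7.88%. The count depended on control replicate 3, since without it limma called 3825 exon signals in CPSF3-labelled arrays and 823 in RBFOX2 hairpin arrays. Control replicate 3 was the control array nearest to the hairpin arrays in 7 of the 9 shifts, and likewise in 78.2% of the 1668 exon signals that were shifted by at least 1 in CPSF3-labelled arrays. RBFOX2 hairpin replicate 2 was the hairpin array nearest to control in 7 of the 9 and in 57.6% of those 1668.

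**Figure D2:**
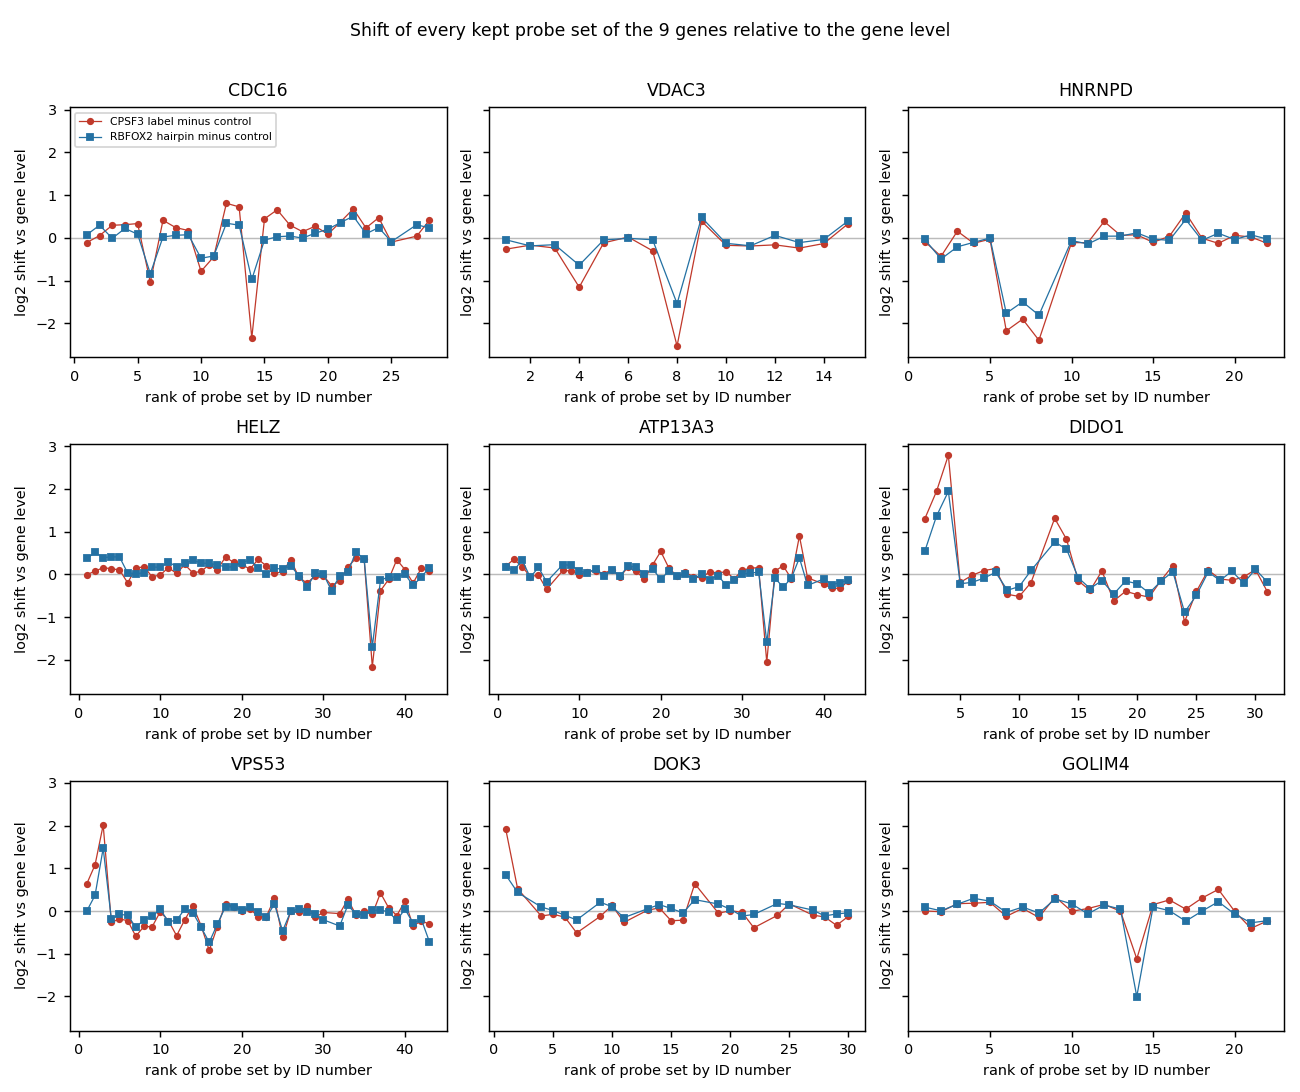
Difference from control in relative signal (log2, vertical axis, the same in all panels) of every probe set annotated to the 9 genes that passed the filter. Probe sets are in order of ID number (horizontal axis), for CPSF3-labelled arrays (circles) and RBFOX2 hairpin arrays (squares). In HELZ, ATP13A3 and GOLIM4 a single point stands out from a profile near 0, whereas in HNRNPD and DIDO1 neighbouring points move with it.

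The other 255 probe sets annotated to the 9 genes that passed the filter mostly moved little. Their median absolute difference from control was 0.16 in CPSF3-labelled arrays and 0.13 in RBFOX2 hairpin arrays. A difference of at least 1 was reached by 9 and 3 of the 255. These are larger shares than the 0.648% and 0.274% of all exon signals that reached 1. The genes were picked in these comparisons, so nothing is read from the excess. The profile plot runs in order of probe set ID number, the only order at hand, since positions along the genes were not used here.

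Among the probe sets annotated to them that passed the filter, HELZ, ATP13A3, DOK3 and GOLIM4 had no further one past 1. In HELZ the next probe sets on both sides, 3768074 and 3768076, differed from control by 0.35 and -0.38 in CPSF3-labelled arrays, against -2.16 between them. In ATP13A3 the neighbours 2711690 and 2711693 differed by 0.16 and 0.08 in CPSF3-labelled arrays, and in GOLIM4 2704287 and 2704291 differed by 0.05 and 0.10 in RBFOX2 hairpin arrays. Among the probe sets annotated to these 3 genes that passed the filter, the shift was thus limited to 1 probe set. Probe sets without a gene symbol that lie between them by ID number are described below. Some of those passed the filter and were also lower by at least 1. HELZ had a further annotated probe set past 1 just under the filter, 3768093, the highest of the gene by ID number, with a mean of 6.93. Its relative signal was -3.82, -4.56 and -3.67 in CPSF3-labelled arrays, -4.19, -2.52 and -3.09 in RBFOX2 hairpin arrays and -1.58, -1.33 and -2.94 in control arrays, a difference from control of -2.07 in CPSF3-labelled arrays and -1.32 in RBFOX2 hairpin arrays. As at the HELZ probe set with the largest shift, control replicate 3 overlapped with RBFOX2 hairpin replicate 2. In DOK3 the shifted probe set has the lowest ID number of the gene, and the next one up, 2888881, moved the same way by 0.52 in CPSF3-labelled arrays and 0.44 in RBFOX2 hairpin arrays.

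CDC16 and VDAC3 each had 1 further probe set that was lower, at a distance from the first. CDC16 probe set 3503175 stood at 0.00, -0.50 and -0.42 in CPSF3-labelled arrays, at 0.00, 0.00 and -0.32 in RBFOX2 hairpin arrays and at 0.78, 0.78 and 0.63 in control arrays, so that all hairpin arrays were below all controls. Zeros arise where the probe set is itself the middle one of its gene. The immediate neighbours of the CDC16 shift, 3503183 and 3503185, were higher than control in CPSF3-labelled arrays, by 0.72 and 0.44. VDAC3 probe set 3096223 differed by -1.16 in CPSF3-labelled arrays and -0.64 in RBFOX2 hairpin arrays, and control replicate 3 at -3.02 lay within the range of the hairpin arrays there.

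In HNRNPD 3 probe sets in a row that passed the filter were lower together. The relative signal of 2775471 was -2.11, -2.84 and -2.70 in CPSF3-labelled arrays, -2.58, -1.20 and -2.64 in RBFOX2 hairpin arrays and 0.11, -0.21 and -1.02 in control arrays, and 2775472 behaved alike, with shifts of -1.90 and -1.50. All 3 had control replicate 3 and RBFOX2 hairpin replicate 2 between the other arrays, in the same order. The probe set after them, 2775474, also annotated to HNRNPD, failed the filter with a mean of 4.83 but was lower as well, with a difference of -2.51 in CPSF3-labelled arrays and -1.90 in RBFOX2 hairpin arrays. Beyond it, 2775475 differed from control by -0.11 and -0.06. Set against its next probe sets instead of the gene, the HNRNPD shift shrank to -0.19 in CPSF3-labelled arrays and -0.11 in RBFOX2 hairpin arrays, so that it is a run and not a single probe set.

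DIDO1 also had a run of 3 probe sets that passed the filter, at the low end of its ID numbers, and these were higher. In CPSF3-labelled arrays 3913527 was above control by 1.30, 3913528 by 1.95 and 3913529 by 2.79, and the next one, 3913530, differed by -0.19. The same probe sets differed from control by 0.54, 1.37, 1.94 and -0.22 in RBFOX2 hairpin arrays. The DIDO1 probe set with the lowest ID number, 3913526, did not pass the filter, with a mean of 5.30, and differed by 1.04 in CPSF3-labelled arrays, which did not overlap with control, and by 0.08 in RBFOX2 hairpin arrays. Farther along, 3913545 was higher by 1.31 and 3913572 lower by 1.11 in CPSF3-labelled arrays; 3913572 had control values of -0.17, -1.11 and -2.78, so that control replicate 3 fell below the CPSF3-labelled mean of -2.46.

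VPS53 showed a smaller run, again at the lowest ID numbers. Probe sets 3739656 and 3739657, just before the one with the largest shift, differed by 0.64 and 1.08 in CPSF3-labelled arrays and by 0.0060 and 0.37 in RBFOX2 hairpin arrays. The next one up, 3739663, differed by -0.26 and -0.19. The probe sets with the largest shift in the 3 genes with a higher signal were thus number 4 in DIDO1, number 3 in VPS53 and number 1 in DOK3 when counted up by ID.

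**Figure D3:**
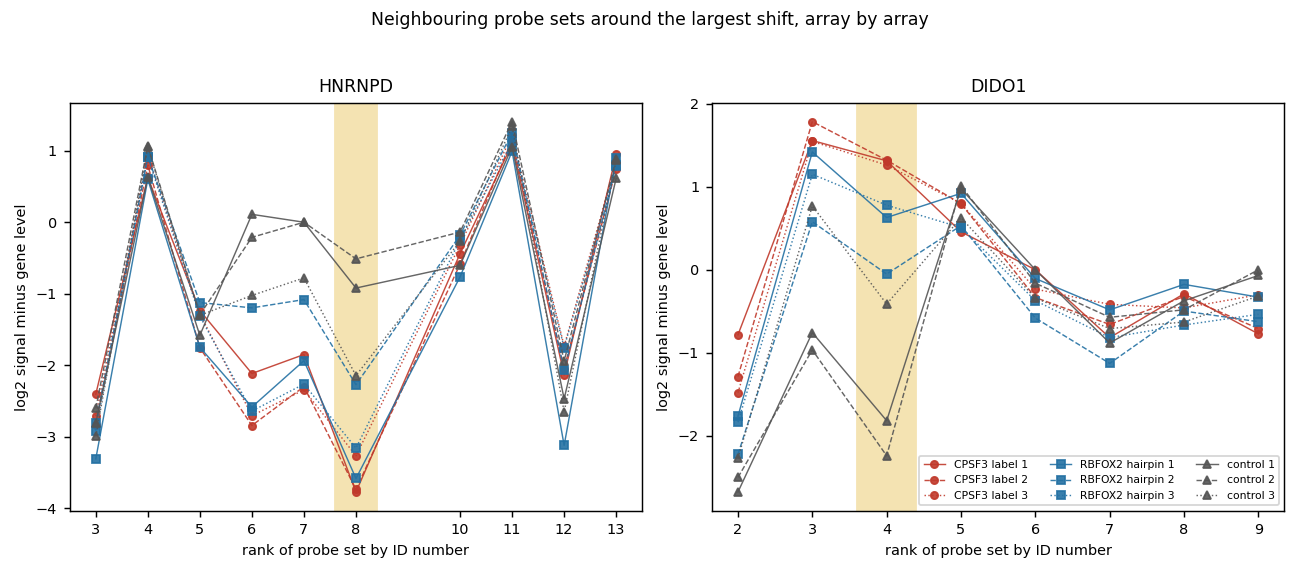
Relative signal (log2, vertical axis) of HNRNPD and DIDO1 probe sets around the largest shift (shaded) on each of the 9 arrays, in order of ID number within the gene (horizontal axis). The HNRNPD lines split at 3 probe sets in a row and rejoin on both sides; in both genes control replicate 3 (dotted grey) lies between the other control arrays and the hairpin arrays at the shaded probe set.

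The hairpin groups were also compared with each other in the other 255 probe sets, which share their arrays and gene levels with the values that picked the genes. None differed between CPSF3-labelled and RBFOX2 hairpin arrays at an adjusted p of 0.05 in limma. At an unadjusted p under 0.05 there were 5, which is 1.96% of the 255 against 4.24% of all exon signals. Because of the shared arrays and gene levels, nothing is read from these counts. The 5 were 1 in CDC16, 1 in DIDO1, 1 in VPS53 and 2 in DOK3. CDC16 probe set 3503183 averaged 1.39 ± 0.19 in CPSF3-labelled arrays and 0.96 ± 0.18 in RBFOX2 hairpin arrays (SD, n = 3 each). In DOK3 the same averages were -0.35 ± 0.32 and -0.72 ± 0.10 at 2889021, and -0.35 ± 0.05 and -0.08 ± 0.05 at 2889139. In DIDO1 probe set 3913527 averaged -1.18 ± 0.36 in CPSF3-labelled arrays and -1.94 ± 0.25 in RBFOX2 hairpin arrays. In VPS53 probe set 3739657 averaged -1.24 ± 0.16 in CPSF3-labelled arrays and -1.95 ± 0.24 in RBFOX2 hairpin arrays. No exon signal of the whole table passed in this comparison, and the 9 probe sets with the largest shifts were left untested because they were picked by their size; by value, the hairpin groups did not overlap in 7 of the 9, with HNRNPD and HELZ as the exceptions, against 9.18% of all exon signals. A gap of at least 1 between the hairpin groups was seen in CDC16 and DOK3, 2 of the 9, and in 0.0377% of all exon signals. The 9 were picked by the size of their shifts in these groups, so nothing is read from either excess.

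Most probe sets on the array carry no gene symbol, and some of these have ID numbers next to those of the 9 genes. Within 3 ID positions of the 9 shifts lay 54 probe sets, of which 16 moved by at least 1 in the same direction in CPSF3-labelled arrays, 9 of them without a symbol. These 16 were found beside 7 of the 9 shifts, and none beside DOK3 or GOLIM4. The 54 include probe sets that did not pass the filter. In the same comparison 0.648% of all exon signals moved by at least 1 either way. Of all probe sets with no symbol between those of 1 gene, taken without the filter, 3.79% were lower and 0.898% higher by that much. The 54 lie beside shifts picked in this comparison, so nothing is read from the excess. The unnamed probe set 3096230, next after the VDAC3 one, differed from control by -2.37 in CPSF3-labelled arrays and -1.11 in RBFOX2 hairpin arrays, relative to the VDAC3 gene level. Beside ATP13A3, 2711692 differed by -2.19 and -1.82, and beside HNRNPD, 2775470 differed by -2.22 and -1.68. In HNRNPD 5 probe sets with consecutive ID numbers, 2775470 to 2775474, were thus lower in both hairpin groups. Of these, 4 are annotated to the gene, 2775474 did not pass the filter, and for 2775470 the annotation names no gene.

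This was followed over all unnamed probe sets that lie, by ID number, between probe sets of the same gene and passed the filter; the look was taken after the neighbours above had been seen. The 9 genes held 116. Relative to the gene level, 23 of the 116 (19.8%) were lower than control by at least 1 in CPSF3-labelled arrays and 22 (19.0%) in RBFOX2 hairpin arrays, while 0 were higher by that much in either. Among all 120998 such probe sets of the table, 3.35% and 2.57% were lower by at least 1, and 0.562% and 0.109% were higher. The 9 genes were chosen for shifts of nearby probe sets in the same comparisons and use the same gene levels, so the excess is described and not tested.

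The lower values were spread unevenly over the genes. In VDAC3, 5 of 6 unnamed probe sets were lower by at least 1 in CPSF3-labelled arrays, in ATP13A3 7 of 11, in GOLIM4 5 of 9, in HELZ 2 of 5 and in HNRNPD 2 of 10. In DIDO1 it was 1 of 27 and in VPS53 1 of 28, and CDC16 with 8 and DOK3 with 12 had none. The genes with a higher named probe set, DIDO1, VPS53 and DOK3, thus had at most 1 such unnamed probe set each in CPSF3-labelled arrays.

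In VDAC3 the median of the 6 unnamed probe sets, relative to the gene, was -4.15, -4.50 and -4.27 in CPSF3-labelled arrays, -3.59, -2.90 and -3.77 in RBFOX2 hairpin arrays and -1.71, -1.35 and -2.65 in control arrays. In ATP13A3 the median of 11 was -2.96, -2.93 and -2.87 in CPSF3-labelled arrays, -3.11, -2.66 and -2.94 in RBFOX2 hairpin arrays and -1.59, -1.67 and -2.21 in control arrays. In both genes every hairpin array was below every control array, and control replicate 3 was the lowest control. In GOLIM4 the median of 9 was -0.70, -1.15 and -0.94 in CPSF3-labelled arrays, -1.10, -0.92 and -1.15 in RBFOX2 hairpin arrays and -0.02, 0.44 and -0.79 in control arrays, so that control replicate 3 overlapped with the CPSF3-labelled arrays.

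Part of the difference came from the gene level, which was higher in the hairpin arrays for most of these genes. Over all 116, the median shift was -0.55 in CPSF3-labelled arrays and -0.64 in RBFOX2 hairpin arrays relative to the gene, and -0.16 and -0.37 in the deposited values. In VDAC3 the deposited values alone still gave -1.35 and -1.19, in ATP13A3 -0.93 and -0.999 and in GOLIM4 -0.73 and -0.78. In DIDO1 they gave 0.06 and -0.05.

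**Figure D4:**
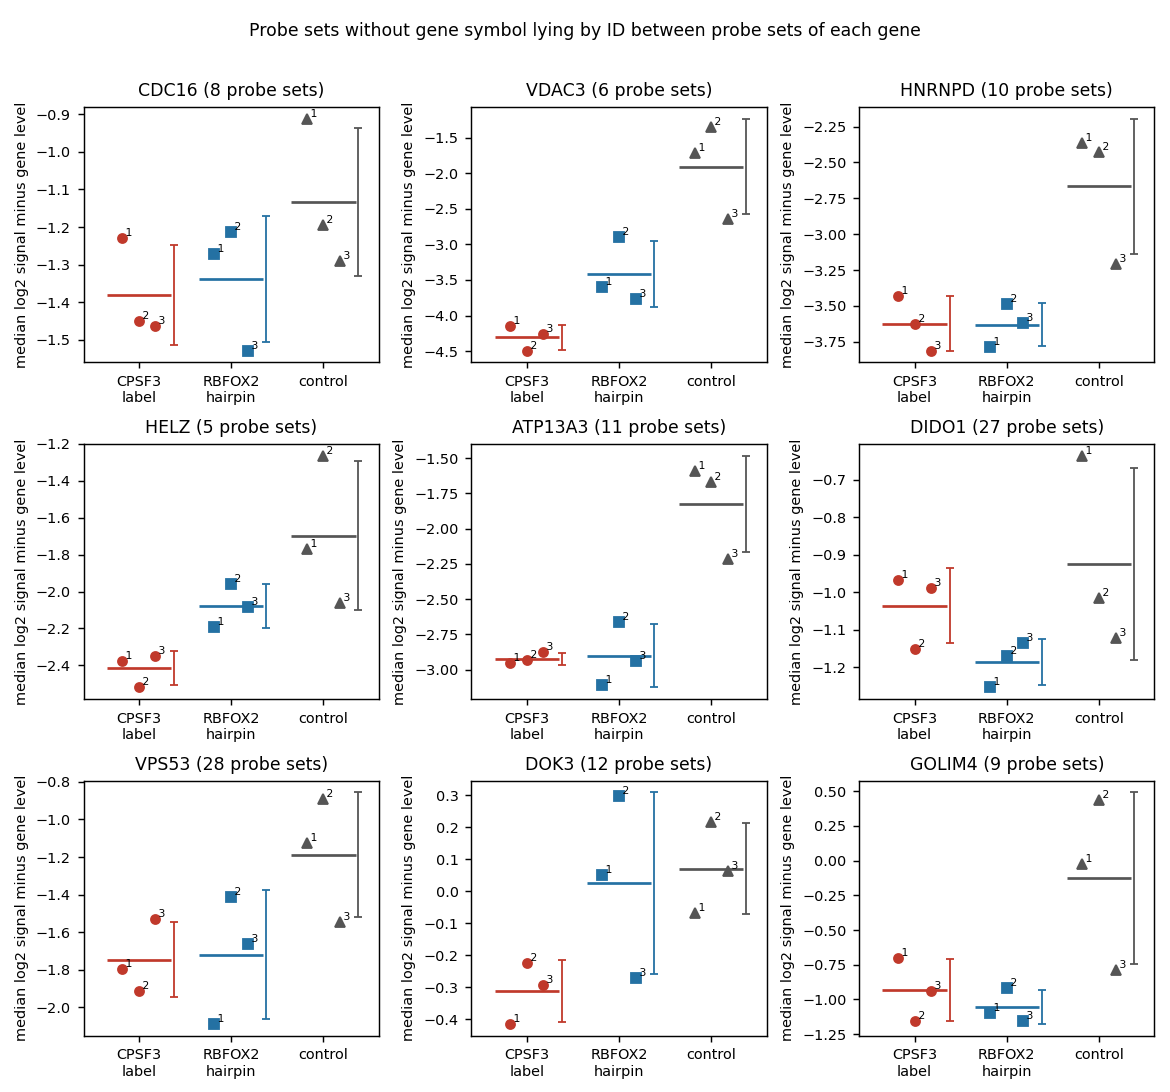
Median relative signal (log2 value minus gene level, vertical axis, one scale per gene) over the probe sets without gene symbol whose ID numbers lie between those of each gene, on CPSF3-labelled, RBFOX2 hairpin and control arrays. Points are arrays with their replicate number, lines are means and bars ± 1 SD (n = 3); VDAC3, HNRNPD and ATP13A3 show the hairpin arrays clear of the controls, while in DOK3 the RBFOX2 hairpin arrays spread across the controls.

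The gene levels themselves moved less than the single probe sets. All 9 were higher in CPSF3-labelled arrays than in control arrays, with a median difference of 0.35 against 0.01 over all 16748 genes, and 6 of the 9 did not overlap with control. Over all genes 31.1% did not overlap, 17.9% of all genes on the higher side; since these comparisons served to pick the genes, no test is given. In RBFOX2 hairpin arrays 6 of 9 genes were higher than control and 0 of 9 were free of overlap, against 14.1% of all genes (7.07% on the higher side).

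VDAC3 had the clearest step at gene level, with 11.56, 11.57 and 11.59 in CPSF3-labelled arrays, 10.86, 11.16 and 11.48 in RBFOX2 hairpin arrays and 11.06, 10.99 and 11.00 in control arrays. The CPSF3-labelled arrays lay together above all others, and the RBFOX2 hairpin arrays were spread around and above the controls. HELZ stood at 10.34, 10.31 and 10.16 in CPSF3-labelled arrays, at 9.85, 9.74 and 9.94 in RBFOX2 hairpin arrays and at 10.00, 9.71 and 10.02 in control arrays, again with the CPSF3-labelled arrays on top. DIDO1 averaged 9.29 ± 0.06 in CPSF3-labelled arrays, 9.16 ± 0.13 in RBFOX2 hairpin arrays and 8.87 ± 0.20 in control arrays (SD, n = 3 each).

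Gene levels enter the relative signals by which the genes were picked, so the difference between the hairpin groups is also given without a test. All 9 differences, CPSF3-labelled minus RBFOX2 hairpin, were positive, with a median of 0.16 against 0.00025 over all genes. They lay between 0.05 (SE 0.15) in GOLIM4 and 0.42 (SE 0.12) in HELZ, with VDAC3 at 0.41 (SE 0.14). Groups did not overlap in VDAC3, HNRNPD and HELZ, 3 of 9, against 20.4% of all genes.

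**Figure D5:**
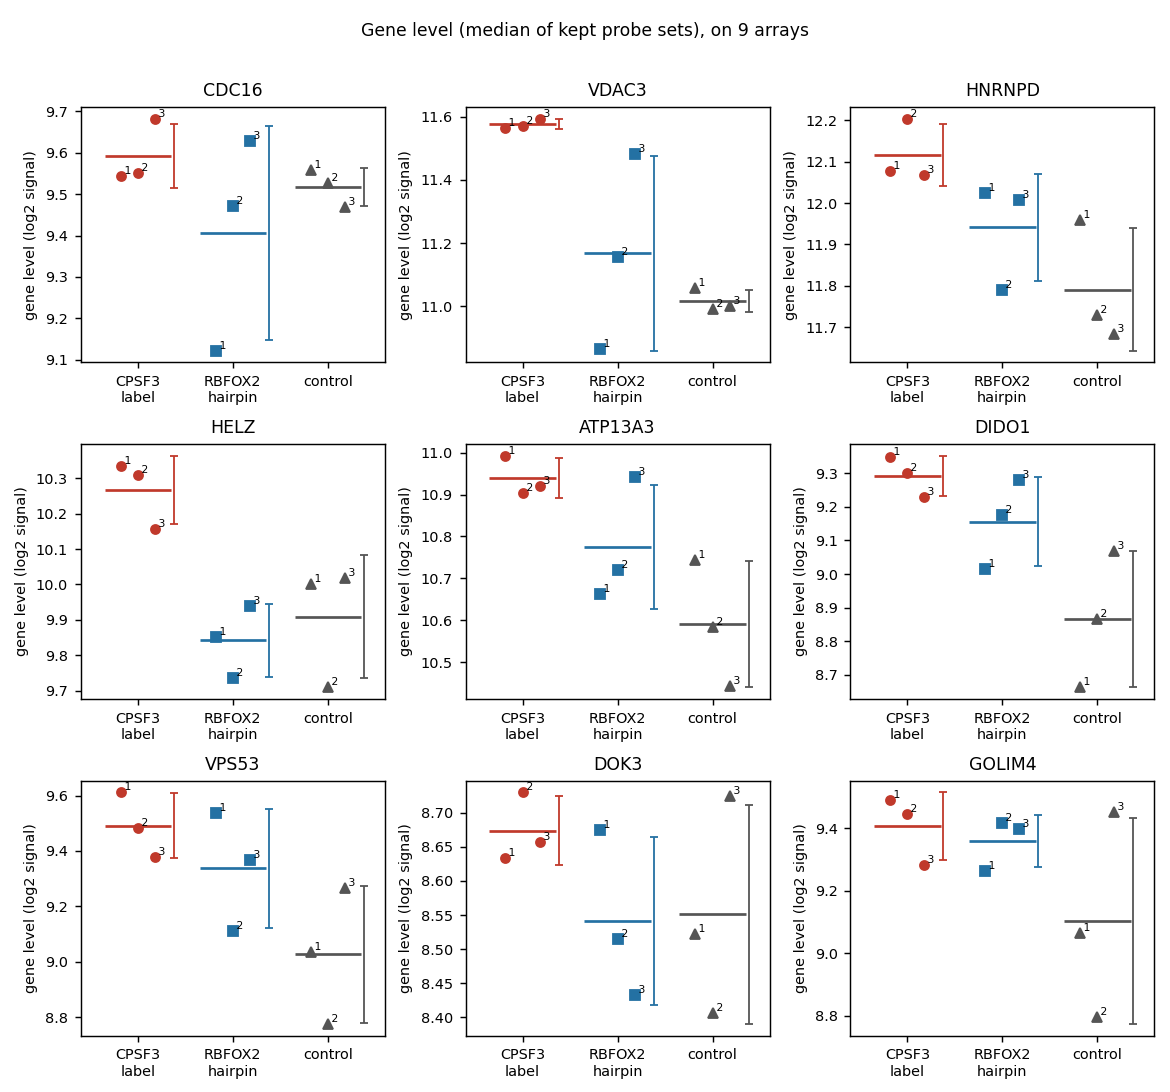
Gene level (median log2 signal of the probe sets that passed the filter, vertical axis, one scale per gene) of the 9 genes on CPSF3-labelled, RBFOX2 hairpin and control arrays. Points are arrays with their replicate number, lines are means and bars ± 1 SD (n = 3); CPSF3-labelled arrays are highest in mean in every panel, and VDAC3, HNRNPD and HELZ show them clear of all other arrays.

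Genes that work with the 9, or are related to them, were looked at as a list of 41, of which 39 were measured; ANAPC7 and VPS51 had no gene level. In CPSF3-labelled arrays 4 of 39 rose and 1 fell against control at an adjusted p of 0.05 in limma, where 10% of all genes were called higher and 4.38% lower. The median difference of the list was 0.09, against 0.01 over all genes. In RBFOX2 hairpin arrays 0 of 39 were called by limma against control (0.173% of all genes, 0.0299% on the higher side; 3 of 39 at an unadjusted p under 0.05, where 13.6% of all genes stood), and between the hairpin groups likewise 0 of 39 (0.4% of all genes; 4 of 39 at an unadjusted p under 0.05, where 13.3% of all genes stood).

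The subunits and activators of the anaphase-promoting complex, to which CDC16 belongs, made up 3 of the 4 that rose. They were 3 of 14 measured genes of the complex, where 10% of all genes were called higher. ANAPC5, a subunit of its platform, stood at 11.16, 11.07 and 11.15 in CPSF3-labelled arrays, at 10.89, 10.69 and 10.79 in RBFOX2 hairpin arrays and at 10.41, 10.28 and 10.73 in control arrays. Its CPSF3-labelled arrays were above all others, and the difference from control was 0.66 (SE 0.13, limma adjusted p = 0.00585). ANAPC4 and CDC27, named in addition because they complete the count and after their values were seen, differed by 0.56 each. Of the 14 measured genes of the complex, 13 had a positive difference in CPSF3-labelled arrays, with a median of 0.26 against 0.01 over all genes. The share of all genes with a positive difference is not given here, and a rise of the complex as a whole was not tested. CDC16 itself differed by 0.08.

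Among the partners of VPS53, VPS50, the subunit that defines the recycling form of the tethering complex, stood at 8.63, 8.24 and 8.13 in CPSF3-labelled arrays, at 7.87, 7.77 and 8.02 in RBFOX2 hairpin arrays and at 7.63, 7.23 and 7.93 in control arrays. No CPSF3-labelled array overlapped with another group, and the difference from control was 0.74 (SE 0.17, limma adjusted p = 0.0132). It missed the threshold without control replicate 2 (0.56, limma adjusted p = 0.0534) and without CPSF3-labelled replicate 1 (0.59, limma adjusted p = 0.0698).

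DOK4, a relative of DOK3, fell to 8.12, 8.13 and 8.12 in CPSF3-labelled arrays, against 8.58, 8.58 and 8.63 in control arrays. The difference was -0.47 (SE 0.10, limma adjusted p = 0.0094), but it was 0.028 with a filter at the upper quartile of signal, -0.36 with no filter and -0.19 with the mean as gene level, all short of the threshold. In RBFOX2 hairpin arrays DOK4 stood at 8.21, 8.07 and 8.19, a difference from control of -0.44 that missed the adjusted threshold (limma adjusted p = 0.11). None of the measured relatives of VDAC3, HNRNPD, HELZ, ATP13A3, DIDO1 and GOLIM4 passed in any of the 3 comparisons.

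In the 39 measured partners and relatives, 873 probe sets had an exon signal, and 0 of them were called by limma in any comparison. At an unadjusted p under 0.05 there were 110 (12.6%, against 12.7% of all exon signals) in CPSF3-labelled against control arrays, 73 (8.36%, against 7.88%) in RBFOX2 hairpin against control arrays and 24 (2.75%, against 4.24%) in CPSF3-labelled against RBFOX2 hairpin arrays. A shift of at least 1 from control occurred in 8 of the 873 (0.916%) in CPSF3-labelled arrays and in 5 (0.573%) in RBFOX2 hairpin arrays, and 0 reached 2. Over all exon signals the shares past 1 were 0.648% and 0.274%, as above.

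Among the 9 shifted probe sets, HNRNPD and HELZ had the most alike pattern over the 9 arrays, with a root mean square difference of 0.23 after each was centred on its mean. CDC16 and VDAC3 came next at 0.32. GOLIM4 was closest to ATP13A3, at 0.66, and among those that were higher DIDO1 was closest to VPS53, at 0.47. All 9 share the same arrays and the same control group.

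Outside the 9 genes, the probe sets with the most similar patterns were found by the same measure. For ATP13A3 these were in FBXO7 (0.19) and PAPOLA (0.20), which codes for a poly(A) polymerase. For HNRNPD they were in PCF11 (0.30), a factor of transcription termination and 3' end formation, and in the helicase gene DDX52 (0.30). For HELZ they were in TJP1 (0.26) and DHX15 (0.28), for VDAC3 in HAT1 (0.36) and MTBP (0.37), and for CDC16 in FAM76B (0.33) and TAF9B (0.36).

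The higher probe sets had their closest counterparts in WDR33 (0.21), a subunit of the polyadenylation machinery, and AHSA2P (0.21) for VPS53, in RRP7BP (0.27) and LRRC41 (0.30) for DOK3 and in EP400P1 (0.33) and RPL32 (0.43) for DIDO1. The WDR33 probe set differed from control by 1.59 in CPSF3-labelled arrays and 1.43 in RBFOX2 hairpin arrays, and the PCF11 one by -2.15 and -1.90. For GOLIM4 they were in SIGLEC12 (0.36) and TCTN1 (0.38), both lower in RBFOX2 hairpin than in CPSF3-labelled arrays, as GOLIM4 was. These are the nearest of all exon signals that passed the filter. The 9 arrays include the groups by which the genes were picked, so nothing about shared control is read from these patterns. A function is named for only some of these genes, and a common function among them was not tested.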

How the data were processed

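Labelled single-stranded cDNA, made from amplified total RNA, was measured on Affymetrix Human Exon 1.0 ST arrays. The authors deposited a log2 signal per probe set and array; per the submitters' processing notes they come from Affymetrix Power Tools with RMA and build hg18, and the series text names the Exon Array Computational Tool. The sources used here give no versions. RMA brings all arrays to a common distribution, which hides a change common to most transcripts and compresses changes of weak signals; the number of arrays limits the precision.

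The platform annotation gave 1 symbol to 354600 of 1384231 probe sets, several to 14898 and none to 1014733. Of the symbols 16426 were current, 2950 were updated and 121 kept as given; all 9 genes had a current symbol. Coordinates and sequences are not used here, because the builds differ.

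From the deposited log2 values, probe sets with a mean at or above the median of all (6.97) were kept (692116). Gene levels were medians of 3 or more kept probe sets (16748 genes), and the relative signal was taken in genes with at least 5 (257548 probe sets, 15035 genes). Both were fitted over all features in a single model of 3 groups with limma 3.58.1 (lmFit, eBayes) in R 4.3.3, with the data.table package 1.17.8, 2-sided, with Benjamini-Hochberg adjustment at 0.05; SE values are from these fits. The planned test of the 9 gene levels between the hairpin groups is not reported, because gene levels entered the choice of the genes. An exact permutation test of 3 against 3 arrays cannot go below p = 0.1. The median makes 338 probe sets exactly 0 on every array. The fits were tested on simulated data.

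The 9 genes, the list of 41 partners and relatives and the markers were chosen with earlier results of these data known. Named in the text are all 9 genes, their largest shift and further probe sets past 1. Of the next 2 probe sets of the same gene on each side only some are named, and those of VDAC3 are not. Also named are the 2 highest and 2 lowest called partners per comparison, and the 2 most alike probe sets of other genes for each of the 9. Alternatives were other filters, the mean as gene level, the replicate number as block, each array left out, only the groups compared, a variance trend, array weights and other baselines for the shifts.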

Additional observations from a re-analysis of the deposited data

How the results depend on the processing

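In CPSF3-labelled against control arrays, the count of exon signals called by limma, 0 in the report, was 2 with the filter at the upper quartile, 678 with the mean as gene level, 773 with a trended variance, 1936 under array weights and 199 without the probe sets that are 0 on every array, a setting added after seeing the data. In RBFOX2 hairpin against control arrays it was 1 with the mean as gene level. Leaving out 1 array gave 0 to 3825 and 0 to 823, the highest without control replicate 3; between the hairpin groups it was 0 in every setting.

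Gene counts in CPSF3-labelled against control arrays, 2409 in the report, were 965 to 3429 with 1 array left out (1082 and 1205 without control replicates 1 and 2, 965 and 1466 without CPSF3-labelled replicates 1 and 2) and 4817 with array weights. In RBFOX2 hairpin against control arrays, 29 genes became 2 to 1546 (1546 without control replicate 3), 7 with no filter, 44 with the mean, 5 with only the groups compared and 1513 with array weights. Between the hairpin groups, 67 genes became 14 to 145 (14 without CPSF3-labelled replicate 1, 145 without control replicate 3), 18 with no filter, 140 with the mean, 149 with only the groups compared and 601 with array weights. The causes were not tested.

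Same-numbered arrays did not deviate together throughout, with correlations from -0.14 to 0.33 for gene levels and from -0.16 to 0.38 for exon signals. These values do not settle whether same-numbered arrays belong together, and the main fit did not use the numbers. With the replicate block the gene counts were 137 in RBFOX2 hairpin against control arrays and 42 between the hairpin groups.

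The median size of the 9 shifts in CPSF3-labelled arrays was 1.91 to 2.59 with arrays left out, the highest without control replicate 3 and again, at 2.59, when RBFOX2 hairpin replicate 2 was left out as well. No shift of the 9 reversed under any alternative. The gene level difference of GOLIM4 between the hairpin groups, 0.05, ranged from -0.000418 without RBFOX2 hairpin replicate 1 to 0.11 with other arrays left out, and that of DOK4 in CPSF3-labelled against control arrays became 0.028 with the filter at the upper quartile. DOK3 has no lower neighbour, and ATP13A3, DOK3 and GOLIM4 lie below the stricter filter, so they have no value there.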

Other observations

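Without the filter on low signal, the ID ranges of the 9 genes held 219 probe sets with no gene symbol. Relative to the gene level, 55 of them (25.1%) were lower than control by at least 1 in CPSF3-labelled arrays and 1 was higher, and in RBFOX2 hairpin arrays 41 (18.7%) were lower and 1 was higher. Over the 261117 such probe sets of the whole table, 3.79% were lower in CPSF3-labelled arrays and 2.90% in RBFOX2 hairpin arrays. By contrast, of the 257548 exon signals with a symbol, 0.403% were lower and 0.245% higher by at least 1 in CPSF3-labelled arrays.

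Beside CDC16, the 2 unnamed probe sets nearest to its shift, 3503182 and 3503186, were dim (means of 4.29 and 6.09) and differed from control by -1.35 and -1.15 in CPSF3-labelled arrays, relative to the gene. Beside HELZ, 3768072 and 3768078 differed by -2.14 and -1.76. All 4 failed the filter, so the counts limited to probe sets that passed it leave them out. They are in the counts of probe sets within 3 ID positions, and among the 219 and the 55 given just above.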
